A study of Mus musculus with 21 samples.

Results

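The genes described here are those of AMP-activated protein kinase (AMPK) and of its upstream kinases LKB1 and CaMKK2, in AGRP and POMC neurons of fed and food-deprived (FD) mice. The members were taken by symbol, with earlier results of these data known, and all 9 of them were found among the 35266 genes of the count and TPM tables. They are the catalytic subunit genes *Prkaa1* and *Prkaa2*, the scaffold genes *Prkab1* and *Prkab2*, the regulatory genes *Prkag1*, *Prkag2* and *Prkag3*, and the kinase genes *Stk11* and *Camkk2*. Of these, 8 passed the filter on low counts and were tested, and *Prkag3* did not pass.

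RNA-Seq libraries were made from fluorescent neurons picked by hand from the arcuate nucleus of male C57BL/6J mice, 1 mouse per library, at 46 to 56 days of age. AGRP neurons came from the NPY-hrGFP strain, 5 mice with food at all times and 6 mice with water alone for 24 h. POMC neurons came from the Pomc-GFP strain, 5 fed and 5 FD mice. Every animal carried a fluorescent reporter, AGRP neurons were recognized through an *Npy* reporter, and 44 to 214 cells were pooled per mouse. Libraries held 9822298 to 37663979 counts on genes, and 3 counts, used as the floor, corresponded to 0.0797 to 0.305 CPM (counts scaled to library size). This floor covers counting error only, because amplified reads are not independent molecules. *Agrp* reached 12050 ± 5194 TPM in FD AGRP libraries and 46.0 ± 25.6 TPM in FD POMC libraries, and *Pomc* 32.7 ± 21.9 and 10743 ± 2129 TPM (SD, n = 6 and 5), each high in the cell type its label names. The summed TPM of 16 astrocyte, oligodendrocyte, microglia and endothelial markers was 36.4 to 53.7 in fed AGRP, 25.3 to 45.2 in FD AGRP, 31.0 to 40.2 in fed POMC and 25.5 to 55.8 in FD POMC libraries. *Mbp* was the highest of them in each group, and 4 or 5 of the 16 stayed at or under the floor in every library of a group. Of the 10 markers tested, 1 passed in a comparison, *Aldh1l1* of astrocytes, which rose with deprivation in AGRP neurons from 0.0312 ± 0.0286 CPM, under the floor, to 2.26 ± 2.34 CPM (q = 0.0284), and its part in the results was not tested. Mouse ages were not balanced. Mice of 46 to 47 days gave 3 of the 6 FD AGRP, 2 of the 5 fed AGRP and no POMC libraries. Fed POMC replicates 1 and 2 came from mice of 51 days, and FD POMC libraries from mice of 54 to 56 days. The volume of ERCC spike-in RNA followed cell number in fed AGRP replicates 4 and 5, FD AGRP 1 to 3 and fed POMC 1 and 2. It was 10 µl in fed AGRP 2 and 3, FD AGRP 4 and 6 and FD POMC 4 and 5, and 1 µl otherwise. These spike-in sets were thus not balanced either.

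AMPK is a heterotrimer of a catalytic alpha, a scaffold beta and a regulatory gamma subunit, and each subunit has paralogs. The gamma subunit binds adenine nucleotides, so that the kinase is activated when AMP and ADP rise against ATP, after phosphorylation of the alpha subunit by LKB1 (*Stk11*) or, in response to calcium, by CaMKK2. In the arcuate nucleus AMPK is known as a fuel sensor that ghrelin activates and leptin and insulin restrain. Transcript levels do not measure phosphorylation of the kinase.

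The promoter windows of the subunits that differed between the cell types in FD mice, *Prkaa2*, *Prkab2* and *Prkag2*, are shown with that of *Prkaa1*, the paralog of *Prkaa2* that did not pass the test. Each is the 250 bases before the RefSeq start (GRCm38.p6, 5′ to 3′ on the strand of the gene), and capitals mark a GC box (GGGCGG) or a CCAAT box (CCAAT) on either strand.
*Prkaa1* (chr15:5143611-5143860, plus strand): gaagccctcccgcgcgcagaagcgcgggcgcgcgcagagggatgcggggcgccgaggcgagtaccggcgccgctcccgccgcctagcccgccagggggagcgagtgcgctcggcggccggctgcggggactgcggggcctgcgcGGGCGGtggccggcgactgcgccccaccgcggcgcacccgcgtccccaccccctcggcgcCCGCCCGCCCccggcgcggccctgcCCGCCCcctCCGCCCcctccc
*Prkaa2* (chr4:105109899-105110148, minus strand): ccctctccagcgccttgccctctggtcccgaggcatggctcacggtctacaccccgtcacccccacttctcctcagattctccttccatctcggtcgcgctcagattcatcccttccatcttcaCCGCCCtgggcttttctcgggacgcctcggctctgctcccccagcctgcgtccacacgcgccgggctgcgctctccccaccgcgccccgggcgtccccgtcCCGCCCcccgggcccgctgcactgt
*Prkab2* (chr3:97657962-97658211, plus strand): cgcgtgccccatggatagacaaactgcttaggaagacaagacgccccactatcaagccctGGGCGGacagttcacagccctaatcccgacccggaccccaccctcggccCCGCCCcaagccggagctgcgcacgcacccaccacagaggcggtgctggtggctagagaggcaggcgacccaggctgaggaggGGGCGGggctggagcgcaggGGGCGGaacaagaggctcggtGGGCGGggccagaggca
*Prkag2* (chr5:25100643-25100892, minus strand, the outermost of 3 RefSeq starts): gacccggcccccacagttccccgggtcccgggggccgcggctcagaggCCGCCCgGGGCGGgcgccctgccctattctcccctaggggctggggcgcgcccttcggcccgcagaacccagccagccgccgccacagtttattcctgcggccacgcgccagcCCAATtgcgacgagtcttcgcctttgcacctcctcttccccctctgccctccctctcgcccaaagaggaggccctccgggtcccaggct
GC boxes numbered 5 in *Prkaa1*, 2 in *Prkaa2*, 5 in *Prkab2* and 2 in *Prkag2*, and *Prkag2* alone of these 4 held a CCAAT box. The GC box was present in 32.7% and the CCAAT box in 33.9% of 32841 RefSeq windows of the same length. G and C made up 85.2% of the *Prkaa1*, 70% of the *Prkaa2*, 69.2% of the *Prkab2* and 73.2% of the *Prkag2* window, beside a median of 52.4% over all windows. None of the windows of the 9 members held the E-box CACGTG, the cAMP response element TGACGTCA, the FOXO site TGTTTAC or the TATA box TATAAA on either strand, letters that were found in 6.02%, 1.55%, 3.17% and 12.4% of all windows.

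Between genes, levels were compared in TPM, which is per length and so rests on the exon lengths summed by the authors. The catalytic gene *Prkaa1* (chr15:5143861-5181899, mm10) was the highest member in 15 of the 21 libraries, at 66.9 ± 11.7 TPM in fed AGRP, 45.6 ± 13.0 in FD AGRP, 44.5 ± 10.2 in fed POMC and 67.8 ± 15.8 in FD POMC neurons (SD, n = 5, 6, 5 and 5). *Prkaa2*, the other catalytic gene, stood at 38.6 ± 8.20, 29.2 ± 8.13, 45.4 ± 18.6 and 64.7 ± 13.7 TPM in the same order of groups. It was second on average over all libraries, but by group mean it was below *Stk11* and *Prkag1* in FD AGRP neurons and above *Prkaa1* in fed POMC neurons. Without division by length, *Prkaa2* averaged 87.3, 77.9, 115 and 154 CPM after TMM scaling in the same order of groups. *Prkaa1* averaged 88.5, 71.1, 66.5 and 94.2, so the order of these paralogs depends on the lengths used. At the low end, *Camkk2* was below the other 7 tested members in 17 of 21 libraries, at 4.43 ± 2.57, 6.92 ± 2.21, 2.62 ± 1.72 and 4.46 ± 2.21 TPM. Averages over the 21 libraries placed *Stk11* (34.1 TPM), *Prkag2* (31.9 TPM), *Prkag1* (29.2 TPM), *Prkab2* (19.0 TPM) and *Prkab1* (13.5 TPM) between them. Most neighbours in this order did not differ beyond their spread. Leaving *Prkag3* aside, the ranges of neighbouring genes were apart only for *Prkaa1* over *Prkaa2* in fed AGRP neurons (50.5 to 77.9 against 28.2 to 50.2 TPM) and for *Prkab1* over *Camkk2* in FD POMC neurons (10.6 to 21.4 against 1.90 to 7.81 TPM). *Prkag3*, the gamma isoform known from skeletal muscle, had 0 counts in 20 of 21 libraries and 4 counts in 1 FD AGRP library, so no fold is given for it.

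Within each subunit class, isoform shares were taken as percent of the summed TPM of the paralogs. *Prkaa2* made up 36.7 ± 6.58% of the alpha TPM in fed AGRP, 39.6 ± 9.24% in FD AGRP, 49.3 ± 9.97% in fed POMC and 48.8 ± 3.92% in FD POMC neurons. It stayed below *Prkaa1* in all 11 AGRP libraries, and exceeded it in 1 fed and 1 FD POMC library. *Prkab2* held 55.6 ± 9.53%, 44.9 ± 18.5%, 80.0 ± 18.6% and 60.1 ± 14.6% of the beta TPM in the same order. Its widest range was in FD AGRP neurons, 29.0 to 79.0% over 6 libraries. *Prkag2* held 54.4 ± 12.0%, 42.0 ± 9.69%, 51.4 ± 11.7% and 62.7 ± 8.81% of the gamma TPM, and exceeded *Prkag1* in all 5 FD POMC libraries and in 2 of 6 FD AGRP libraries. The FD groups did not overlap in this share, which was 26.6 to 52.2% in AGRP and 54.1 to 75.4% in POMC neurons. The fed groups did not overlap in the *Prkaa2* share, 26.5 to 41.6% in AGRP and 42.5 to 66.6% in POMC neurons. How often shares of other paralogs are apart was not examined. The span of *Prkag1* overlaps that of B130046B21Rik, with median counts of 274 and 52. These shares are a description and were not tested.

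**Figure D1:**
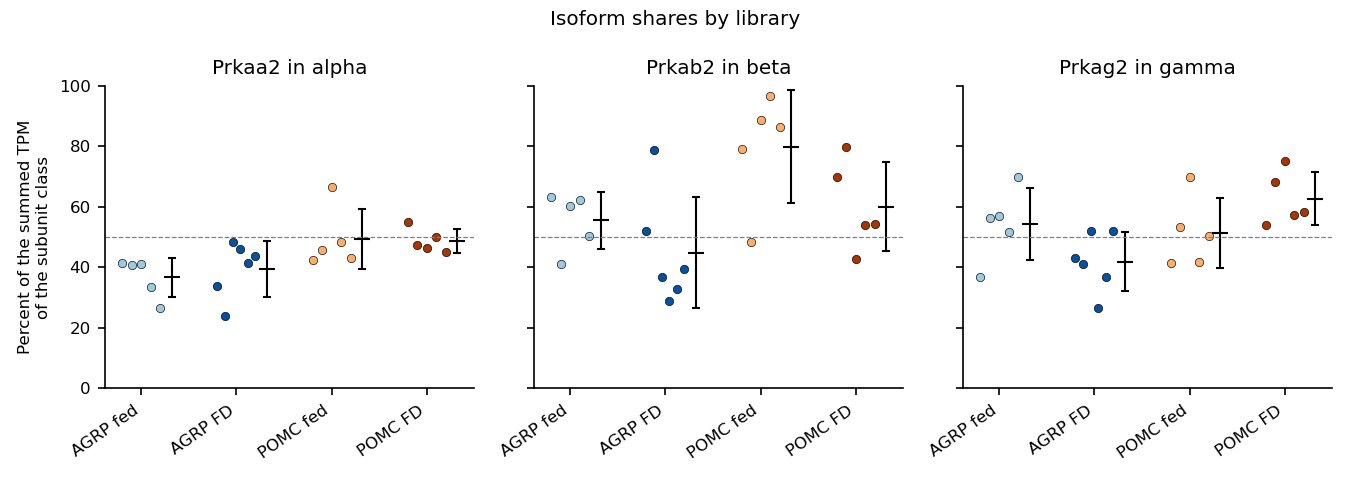
Share of *Prkaa2*, *Prkab2* and *Prkag2* in the summed TPM of their subunit class (y axis, percent) for each library (points) in the 4 groups, with the mean and SD beside the points and a dashed line at equal shares of a pair. The *Prkaa2* points of all AGRP libraries lie under the line, and the *Prkag2* points of FD AGRP (26.6 to 52.2%) lie under those of FD POMC neurons (54.1 to 75.4%).

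Whether deprivation changed the members was asked in each cell type with edgeR's quasi-likelihood test on counts, fitted to all genes, and a q-value (Benjamini-Hochberg adjusted p) below 0.05 counted as a call. None of the 8 tested members passed in AGRP neurons, where 10.3% of the 16513 tested genes were called, and none passed in POMC neurons, where 0.375% were called. At an unadjusted p below 0.05, the counts were 1 member in AGRP and 2 in POMC neurons. limma-voom and DESeq2 also called 0 members in both comparisons, and no member had groups without overlap, against 7.65% and 2.35% of genes. The median log2 fold change of the 8 members was -0.03 in AGRP and 0.38 in POMC neurons, and that of all genes -0.02 in both.

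In AGRP neurons the catalytic and scaffold genes were at similar or lower values after deprivation. *Prkaa1* measured 74.5, 71.9, 93.9, 98.1 and 104 normalized CPM (CPM after TMM scaling) in fed AGRP libraries, and 49.9 to 96.0 with a median of 72.8 in FD ones. The ranges overlapped, and the log2 fold change was -0.32 ± 0.20 (SE, q = 0.389). *Prkaa2* measured 64.5 to 112 in fed and 51.3 to 107 in FD libraries, with a log2 fold change of -0.16 ± 0.21 (q = 0.721). *Prkab2*, the scaffold gene at the lowest unadjusted p in this comparison, measured 31.3, 30.1, 40.3, 40.0 and 11.7 normalized CPM in fed AGRP libraries. In FD AGRP libraries it ranged from 10.8 to 25.2 with a median of 19.1, and 1 fed library, replicate 5, lay inside that range. Its log2 fold change was -0.68 ± 0.32 (q = 0.198). The other scaffold gene, *Prkab1*, differed by 0.11 ± 0.59, a wide error at a mean of 10.5 and 11.3 normalized CPM.

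Of the regulatory genes in AGRP neurons, *Prkag1* differed by 0.45 ± 0.41 and *Prkag2* by -0.31 ± 0.29 on the log2 scale, both with overlapping groups. *Stk11*, which encodes LKB1, measured 7.97 to 41.9 normalized CPM in fed and 14.8 to 41.6 in FD AGRP libraries and differed by 0.21 ± 0.33 (95% confidence interval -0.47 to 0.89). *Camkk2*, the calcium-dependent upstream kinase, had the largest positive value among members here, 0.92 ± 0.56 (q = 0.357). It measured 10.7, 3.36, 3.95, 3.65 and 8.62 normalized CPM in fed libraries, against 6.74 to 17.1 with a median of 12.0 in FD libraries. The interval of its log2 fold change, -0.22 to 2.06, holds both no change and a 4.17-fold increase.

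In POMC neurons 6 of 8 members had positive log2 fold changes after deprivation under TMM scaling. *Prkaa1* measured 66.2, 58.8, 51.7, 77.5 and 78.5 normalized CPM in fed and 86.0, 69.5, 87.8, 98.0 and 130 in FD libraries. Only FD replicate 2 fell within the fed range, and the log2 fold change was 0.50 ± 0.21 (q = 0.311). *Prkab1* measured 3.64, 11.8, 1.30, 0.584 and 1.95 in fed and 7.61, 6.68, 10.6, 12.1 and 13.7 in FD libraries. Fed replicate 2 was the single fed library within the FD range, and the log2 fold change was 1.39 ± 0.63 (q = 0.366), 2.43 without that library (q = 0.103) and 2.57 with age cohort as a block (q = 0.163). *Prkaa2* (0.43 ± 0.22), *Prkab2* (0.34 ± 0.33), *Camkk2* (0.67 ± 0.58) and *Prkag2* (0.15 ± 0.30) had smaller values for their errors, and *Prkag1* (-0.51 ± 0.43) and *Stk11* (-0.08 ± 0.35) were negative. Scaling by ERCC spike-ins per sorted cell moved the median of all genes from -0.02 to -1.11 in this comparison, and all 8 members were then negative, from -1.97 for *Prkag1* to -0.35 for *Prkab1*. Relative to that median, *Prkaa1* stood at 0.44 and *Prkab1* at 0.76. Spike-in volume was not balanced in this comparison. Fed POMC replicates 1 and 2 received 2.16 and 2.04 µl, FD POMC replicates 4 and 5 received 10 µl, and the other POMC libraries 1 µl. Spike-in counts, which this scaling divided by volume, were 11.7 and 13.4% of gene counts in FD POMC replicates 4 and 5. They were 0.390 to 1.46% in the other POMC libraries. Spike-in set was thus partly confounded with deprivation, and its part in this shift was not tested. RNA from all transcripts per cell and the share of 1 transcript cannot be told apart by TMM-scaled values.

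**Figure D2:**
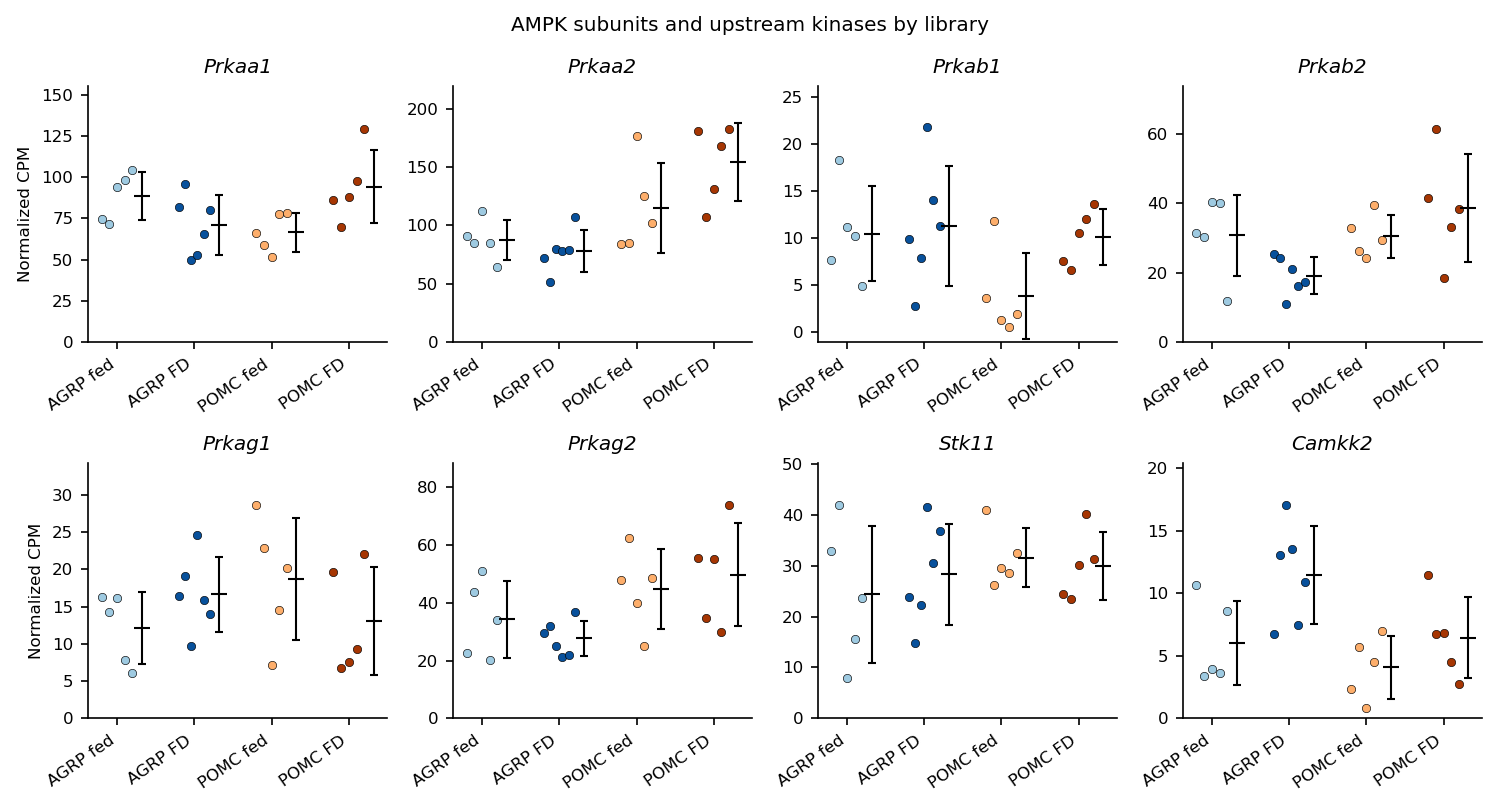
Normalized CPM (y axis, linear) of the 8 tested members in each library (points) of the 4 groups, with the mean and SD beside the points. *Prkaa2* in FD AGRP libraries (51.3 to 107) lies under 4 of the 5 FD POMC libraries and level at its top with the fifth (107), while fed and FD libraries of a cell type overlap for every member.

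The difference between the cell types was then tested within each feeding state. In fed mice none of the 8 members passed, where 7.57% of genes were called, and limma-voom and DESeq2 called 0 as well. One member, *Prkab1*, had an unadjusted p below 0.05, with 7.73, 18.4, 11.3, 10.3 and 4.87 normalized CPM in fed AGRP libraries and the fed POMC values given above. Its log2 fold change, AGRP over POMC, was 1.44 ± 0.63 (q = 0.195), and it became 2.49 (q = 0.0123) without fed POMC replicate 2 and 2.72 (q = 0.0164) with age cohort as a block. No member had groups without overlap in fed mice, against 8.93% of genes. The catalytic genes had opposite signs, *Prkaa1* at 0.41 ± 0.21 (q = 0.298) and *Prkaa2* at -0.39 ± 0.22 (q = 0.355), and *Prkaa2* reached 177 normalized CPM in fed POMC replicate 3 while the other fed POMC libraries lay between 83.9 and 125. *Prkab2*, with 24.1 to 39.5 normalized CPM in fed POMC libraries, differed by 0.01 ± 0.33 (95% confidence interval -0.66 to 0.69), or -0.10 under ERCC scaling. *Prkag1* (-0.62 ± 0.43), *Prkag2* (-0.38 ± 0.30) and *Stk11* (-0.37 ± 0.35) were at lower and *Camkk2* (0.57 ± 0.58) at higher values in fed AGRP neurons, without passing.

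In FD mice 3 of 8 members were lower in AGRP than in POMC neurons and none was higher, where 18.6% of genes were called, 9.28% higher and 9.27% lower. These 3 were 1 gene of each subunit class, the catalytic *Prkaa2*, the scaffold *Prkab2* and the regulatory *Prkag2*. The median of the 8 members was -0.24 and that of all genes 0.00 (log2). No member had groups without overlap, against 11.4% of genes.

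*Prkaa2* (chr4:105029874-105109890, mm10) encodes the alpha isoform that is prominent in muscle. In FD POMC libraries it measured 181, 107, 131, 168 and 183 normalized CPM, and in FD AGRP libraries 51.3 to 107 with a median of 78.4. The highest FD AGRP library and the lowest FD POMC library were near 107, and the others were apart. The log2 fold change was -0.98 ± 0.21 (95% confidence interval -1.41 to -0.55, q = 0.000957), 1.98-fold higher in POMC neurons. The call held without each of the 11 FD libraries in turn (-1.10 to -0.89). It also held within mice of 54 to 56 days, a comparison added after the data were seen, at -0.81 ± 0.23 (q = 0.0211).

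*Prkab2* (chr3:97658212-97673812, mm10), a scaffold subunit with a glycogen-binding module, measured 41.5, 61.4, 18.5, 33.2 and 38.3 normalized CPM in FD POMC and 10.8 to 25.2 in FD AGRP libraries. FD POMC replicate 3 lay within the AGRP range and the other 4 lay above it. The log2 fold change was -1.01 ± 0.32 (q = 0.0238). The call was lost without FD AGRP replicate 3 (q = 0.0571) or FD POMC replicate 2 (q = 0.108), by limma-voom (q = 0.0632), with age cohort (q = 0.0793) or spike-in set (q = 0.0685) as a block, and within mice of 54 to 56 days (-1.10 ± 0.39, q = 0.0700).

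*Prkag2* (chr5:24862744-25100642, mm10) encodes a gamma isoform known from inherited glycogen storage in the heart. It measured 55.4, 34.8, 55.1, 30.0 and 73.8 normalized CPM in FD POMC and 21.3 to 36.7, with a median of 27.4, in FD AGRP libraries. Of the FD POMC libraries, 2 lay within the AGRP range. The log2 fold change was -0.85 ± 0.29 (q = 0.0381), and it was called in 5 of the 11 fits that left out 1 FD library. The call was lost without FD AGRP replicate 3 (q = 0.0653), 4 (q = 0.0767) or 5 (q = 0.0761) and without FD POMC replicate 1 (q = 0.0737), 3 (q = 0.0762) or 5 (q = 0.139), and also with age cohort as a block (q = 0.0846) and within mice of 54 to 56 days (-0.91 ± 0.36, q = 0.107). The span of *Prkag2*, introns included, overlaps those of *Prkag2os1*, *Prkag2os2* and 1500035N22Rik. Reads were counted without strand, and how far exons are shared was not examined. Median counts of the 3 overlapping genes were 10, 17 and 36 beside 702 for *Prkag2*.

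Each of the 3 directions changed under ERCC scaling, to 0.20 for *Prkaa2*, 0.00 for *Prkab2* and 0.32 for *Prkag2* (log2), with no call. That scaling moved the median of all genes from 0.00 to 1.10 in this comparison, and relative to it the 3 genes stood at -0.90, -1.09 and -0.78. The remaining members in FD mice were *Prkaa1* at -0.41 ± 0.20 (q = 0.174), *Prkab1* at 0.16 ± 0.59, *Prkag1* at 0.35 ± 0.41, *Stk11* at -0.08 ± 0.33 and *Camkk2* at 0.82 ± 0.56 (q = 0.341). Spike-in counts were 8.90 to 22.6% of gene counts in the FD libraries given 10 µl and 0.219 to 1.46% in the other FD libraries. Spike-in volume followed cell number in FD AGRP replicates 1, 2 and 3 and in no FD POMC library. Spike-in set was thus partly confounded with cell type here, and its part in this shift was not tested. For *Prkaa2*, *Prkab2* and *Prkag2*, fewer copies per cell and a smaller share of total RNA cannot be told apart.

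A call in FD mice and none in fed mice does not by itself show a difference, so the change with deprivation was compared between cell types by the interaction term. None of the 8 members passed, where 6.71% of genes were called, and 2 had an unadjusted p below 0.05. *Prkaa1* had the smallest p, and its change in AGRP neurons differed from that in POMC neurons by -0.82 ± 0.29 on the log2 scale (q = 0.0929). It was the 1 member called by DESeq2 (q = 0.0485), and limma-voom called none (q = 0.0834). *Prkab2* differed by -1.03 ± 0.46 (q = 0.201) and *Prkaa2* by -0.59 ± 0.31 (q = 0.283). The interval for *Prkaa2* ran from -1.21 to 0.03. Under ERCC scaling both catalytic genes became positive, *Prkaa1* at 0.14 and *Prkaa2* at 0.50, while the median of all genes stood at 1.04.

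**Figure D3:**
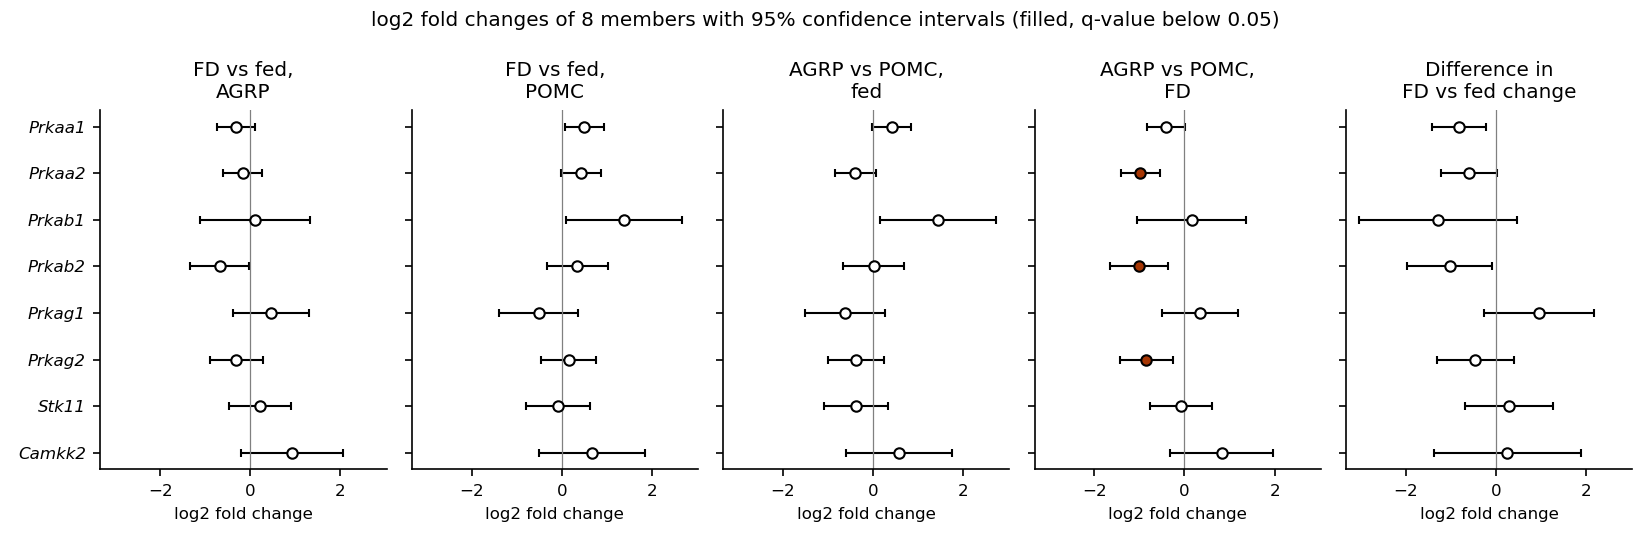
log2 fold change (x axis) of the 8 tested members in the 5 comparisons, with bars for the 95% confidence interval and filled circles where the q-value was below 0.05. The 3 filled circles, *Prkaa2* at -0.98, *Prkab2* at -1.01 and *Prkag2* at -0.85, are in the panel of AGRP against POMC neurons in FD mice.

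*Stk11* (chr10:80115803-80130682, mm10) passed in no comparison. Its span shares 232 bases with that of *Dos*, whose median count was 8276 beside 495 for *Stk11*. Counting ignored strand, and whether these bases are in exons of both genes was not examined. *Camkk2* (chr5:122731173-122779410, mm10) also passed in none. The spread of both was wide within groups, from 7.97 to 41.9 normalized CPM for *Stk11* in fed AGRP and from 0.825 to 7.03 for *Camkk2* in fed POMC neurons. The remaining subunit genes lie at chr5:116013586-116024508 (*Prkab1*), chr15:98812798-98831508 (*Prkag1*) and chr1:74738922-74749221 (*Prkag3*).

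Genes with the most similar pattern were ranked by Pearson's r of log2 normalized CPM over the 21 libraries among 8198 expressed genes, as a description, and libraries share depth and group. They were *Katnal1*, *Cyth3* and *Xpo5* for *Prkaa1* (r = 0.778, 0.772 and 0.735), and *Slc35a3*, AW549877 and *Fam102b* for *Prkaa2* (r = 0.862, 0.832 and 0.830). They were *Ppp2r2c*, *Rheb* and *Nifk* for *Stk11* (r = 0.746, 0.729 and 0.704), and *Zhx3*, *Usp3* and *Scfd1* for *Camkk2* (r = 0.80, 0.794 and 0.777).

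Beside the members, 68 other genes of the pathway in 7 lists were tested. In AGRP neurons 9 of the 68 rose with deprivation and 2 fell, where 5.87% of all genes rose and 4.43% fell. Their median was 0.08. In POMC neurons none rose and 1 fell, where 0.182% and 0.194% of all genes did, and the median was 0.03. With the 5 libraries from mice of 46 to 47 days left out, an alternative chosen after the data were seen, 3 rose and none fell in AGRP neurons. Under ERCC scaling none was called in either cell type. Between the cell types, 2 of the 68 were higher and 3 lower in AGRP than in POMC neurons of fed mice, where 3.33% and 4.24% of all genes were. Of the 68, 10 were higher and 4 lower in FD mice, where 9.28% and 9.27% of all genes were. ERCC scaling turned these counts into 1 higher and 0 lower in fed mice and 7 higher and 0 lower in FD mice.

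Of 6 listed genes of the LKB1 complex and other upstream kinases, 2 rose and 1 fell in AGRP neurons, where 5.87% of all genes rose and 4.43% fell. All 3 are partners of LKB1, as is *Stradb* of the same list, which did not pass (-0.46 ± 0.38, q = 0.543). *Cab39* and *Cab39l*, which encode the MO25 scaffold proteins of the LKB1 complex, rose by 0.74 ± 0.17 (q = 0.00459) and 0.97 ± 0.31 (q = 0.0427). *Strada*, the pseudokinase that activates LKB1, measured 22.7 to 40.8 normalized CPM in fed and 6.50 to 19.9 in FD AGRP libraries. These ranges were apart, and *Strada* fell by 1.12 ± 0.32 on the log2 scale (q = 0.0227). *Cab39* was called without each AGRP library in turn. *Cab39l* was not called by limma-voom (q = 0.0613), and it was called in 4 of the 11 fits that left out 1 AGRP library (highest q = 0.118) and *Strada* in 7 of 11 (highest q = 0.0735).

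Of the 12 AMPK-related kinases that LKB1 also activates, 2 rose in AGRP neurons and none fell. *Sik2*, a salt-inducible kinase that acts on CRTC coactivators, measured 19.6 to 48.7 normalized CPM in fed and 50.3 to 114 in FD AGRP libraries and rose by 1.44 ± 0.29 (q = 0.00108). *Sik1*, its cAMP-inducible relative, measured 13.8 to 23.2 and 25.4 to 67.5 and rose by 1.24 ± 0.35 (q = 0.0182). Both had groups that did not overlap. The *Sik1* call was lost without FD AGRP replicate 5 (q = 0.0591) or fed AGRP replicate 4 (q = 0.0539), and *Sik2* was called without each AGRP library in turn. In POMC neurons they stood at -0.13 ± 0.29 for *Sik2* and -0.56 ± 0.35 for *Sik1*. The interaction passed for *Sik2* (1.57 ± 0.41, q = 0.0164) and *Sik1* (1.80 ± 0.49, q = 0.0228).

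Downstream, 1 of 24 listed AMPK substrates and effectors passed in AGRP neurons and none in POMC neurons. *Tbc1d4*, the Rab GTPase-activating protein AS160 of glucose transporter traffic, rose from 12.1 to 26.2 normalized CPM in fed to 26.7 to 74.5 in FD AGRP libraries (1.35 ± 0.36, q = 0.0131). Among 6 phosphatases, *Ppp2ca*, a catalytic subunit of PP2A, rose by 0.56 ± 0.18 (q = 0.0433), and it was called in 3 of 11 fits that left out 1 AGRP library (highest q = 0.133). Among 9 adenylate and phosphocreatine enzymes, *Ak4*, a mitochondrial adenylate kinase, measured 21.2 to 32.3 in fed and 6.43 to 16.1 in FD AGRP libraries. Its groups were apart, and it fell by 1.42 ± 0.32 on the log2 scale (q = 0.00334).

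Of the 8 calmodulin and CaMKK substrate genes, *Camk1g* rose in AGRP neurons by 1.04 ± 0.31 (q = 0.0280), called in 6 of 11 fits that left out 1 AGRP library (highest q = 0.0924). *Camk4*, the nuclear kinase that CaMKK enzymes activate, fell in POMC neurons by 0.91 ± 0.19 on the log2 scale (q = 0.0233), called in 6 of 10 fits that left out 1 POMC library (highest q = 0.0705) and not by limma-voom (q = 0.0560) or with the 2 POMC groups alone (q = 0.103). Of the hormone receptors upstream of AMPK, the leptin receptor gene *Lepr* and the ghrelin receptor gene *Ghsr* rose in AGRP neurons by 2.39 ± 0.21 (q = 6.04e-09) and 1.72 ± 0.37 (q = 0.00200), and *Insr* of the insulin receptor differed by 0.04 in AGRP and 0.66 in POMC neurons without passing. With the mice of 46 to 47 days left out, *Sik2*, *Lepr* and *Ghsr* were called in AGRP neurons, and the other 8 of the 11 were not, *Cab39* (q = 0.0736), *Sik1* (q = 0.0867), *Camk1g* (q = 0.0994), *Ppp2ca* (q = 0.129), *Tbc1d4* (q = 0.161), *Ak4* (q = 0.172), *Strada* (q = 0.176) and *Cab39l* (q = 0.286). Within AGRP libraries of 54 to 56 days alone, *Sik2*, *Camk1g*, *Lepr* and *Ghsr* were called, and within those of 46 to 47 days *Lepr* alone. All 11 held with age cohort as a block. *Cab39l* lost its call with spike-in set (q = 0.0502) or replicate number (q = 0.0647) as a block and *Ppp2ca* with replicate number as a block (q = 0.0777), and without the count filter neither was called (q = 0.0535 and 0.0507).

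**Figure D4:**
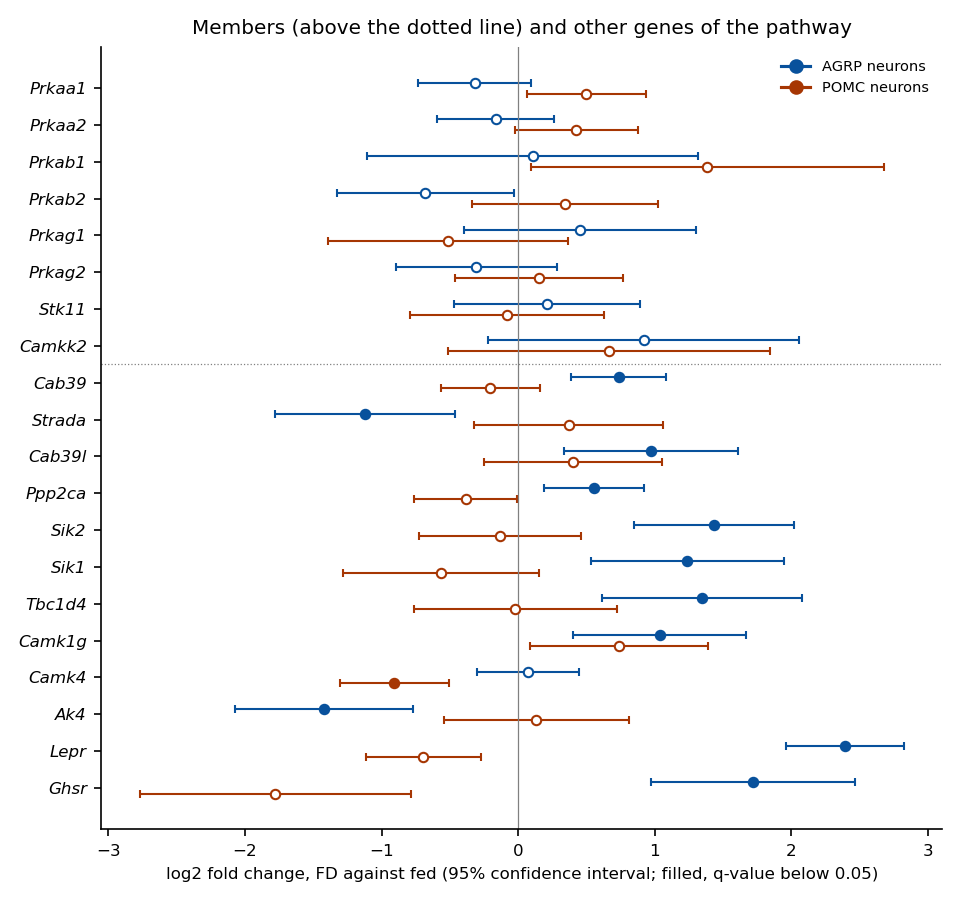
log2 fold change of FD against fed libraries (x axis) with 95% confidence intervals in AGRP (blue) and POMC neurons (brown), for the 8 tested members above the dotted line and the 12 pathway genes named by rule below it. Circles are filled where the q-value was below 0.05, which is so for no member, for 11 of the other genes in AGRP neurons and for *Camk4* in POMC neurons.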

How the data were processed

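RNA-Seq was measured in 21 libraries, 1 mouse each, grouped by the sample labels, and replicate numbers come from the labels. The authors trimmed adaptors (cutadapt 1.7.1), removed abundant sequences (bowtie2 2.1.0), mapped reads to mm10 with STAR 2.4.0i, and made the deposited counts with HTSeq 0.6.1p1 on Gencode genes without strand. The deposited TPM were derived by the authors from these counts and summed exon lengths. The 92 spike-in and 5 summary entries were kept out of library sizes and tests (reads on no gene made up 24.2 to 52.1% of each column).

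Of 35266 genes, the 16513 that exceeded 1 CPM in 3 or more libraries were TMM-scaled, and 1 model of the 4 groups was fitted to counts by edgeR 4.0.16 (R 4.3.3, quasi-likelihood, two-sided, Benjamini-Hochberg). The study's methods used limma-voom, run here (limma 3.58.1) as an alternative beside DESeq2 1.42.0. Standard errors are the log2 fold change over the root of F. TPM served for levels between genes and isoform shares. Scripts used Python 3.11.15 and were checked on simulated counts. Members and lists were chosen with earlier results of these data known. Text names all 9 members and, of each list and deprivation comparison, up to 3 genes with the smallest q-value below 0.05. *Insr* and *Stradb* were named after their values were seen. Alternatives were RLE normalization, no count filter, the 2 groups alone, replicate number, age cohort or spike-in set as a block, ERCC scaling, and each library left out. Within-age fits of deprivation were run too, and fits of FD mice of 54 to 56 days, of 1 spike-in set in POMC neurons and without the mice of 46 to 47 days were chosen after seeing the data. Promoter sequences come from RefSeq (GRCm38.p6), in which all 9 members were found. Protein sequences and reads were not analysed here.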

Additional observations from a re-analysis of the deposited data

Results flagged for a closer look

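Single libraries stood apart from the rest of their group in 6 of 92 groups examined (23 genes in 4 groups), by the ratio of the gap to the range, and chance alone would mark about 1 in 20 groups. Among members this was *Prkab1* in fed POMC replicate 2, at 11.8 normalized CPM beside a next value of 3.64, the library on which the value of this gene in fed mice turned. Among the other genes it was *Sik2* in FD POMC replicate 5 (49.3 beside 31.8), *Camk1g* in FD AGRP replicate 3 (214 beside 144), *Ghsr* in fed AGRP replicate 5 (271 beside 145) and in FD AGRP replicate 2 (740 beside 553), and *Agrp* in fed POMC replicate 5 (9.44 beside 3.04).

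The change with deprivation differed between AGRP and POMC neurons, by the interaction term of edgeR's quasi-likelihood test, for 8 pathway genes named above, for 2 genes used to check the cells and for no member. On the log2 scale, AGRP less POMC, the difference was 1.57 ± 0.41 for *Sik2* (SE, q = 0.0164), 1.80 ± 0.49 for *Sik1* (q = 0.0228), 0.94 ± 0.25 for *Cab39* (q = 0.0176) and 0.94 ± 0.26 for *Ppp2ca* (q = 0.0235). It was 0.98 ± 0.27 for *Camk4* (q = 0.0232), -1.55 ± 0.46 for *Ak4* (q = 0.0364), 3.50 ± 0.61 for *Ghsr* (q = 0.00036) and 3.09 ± 0.29 for *Lepr* (q = 3.18e-08). Part of the difference for *Ghsr* and *Lepr* lay in lower values in FD than in fed POMC neurons, where neither passed. *Lepr* measured 53.3 to 82.8 normalized CPM in fed and 30.0 to 51.6 in FD POMC libraries. *Ghsr* measured 2.65 ± 1.91 in fed and 0.870 ± 0.755 in FD POMC libraries, the lowest near the floor. For the genes used to check the cells, the difference was 2.10 ± 0.50 for *Cartpt* (q = 0.00876) and 1.05 ± 0.21 for *Snap25* (q = 0.00161). The fall of *Cartpt* in POMC neurons was called in 5 of 10 fits that left out 1 POMC library. It was not called by limma-voom (q = 0.0741), with age cohort as a block (-0.69, q = 0.471) or within mice of 54 to 56 days (-0.36, q = 0.683).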

How the results depend on the processing

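The members called numbered 0 in both deprivation comparisons under every alternative run, single libraries left out included. In fed mice 1 member (*Prkab1*) was called with age cohort as a block, and 0 to 1 with single libraries left out, 1 without fed POMC replicate 2. In FD mice 1 was called with age cohort as a block (*Prkaa2*), 0 under ERCC scaling, and 1 to 3 with single libraries left out, 1 (*Prkaa2*) without FD AGRP replicate 3. For the interaction 1 was called by DESeq2 (*Prkaa1*). The cause was not tested.

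Over all genes, ERCC scaling gave 97, 13, 297, 1117 and 119 calls in place of 1700, 62, 1250, 3064 and 1108 for deprivation in AGRP and in POMC neurons, cell type in fed and in FD mice, and the interaction. In POMC neurons DESeq2 called 382, and 40 to 110 were called with single libraries left out (40 without FD replicate 3, 110 without fed replicate 3). Without the mice of 46 to 47 days 882 were called in AGRP neurons. The fit with replicate number as a block called 1488, 48, 1132, 2817 and 927 genes and 0, 0, 0, 3 and 0 members. Same-numbered samples are different mice, and 2 of 30 such pairs deviated together at a correlation over 0.1 (median -0.02).

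Directions turned for the log2 fold changes that follow. With deprivation in AGRP neurons, within mice of 46 to 47 days *Prkab1* stood at -0.16 and *Prkag2* at 0.071, within mice of 54 to 56 days *Stk11* at -0.074, and with single libraries left out *Prkab1* ran from -0.19 to 0.40 and *Stk11* from -0.0096 to 0.50. In POMC neurons ERCC scaling gave *Prkaa1* -0.67, *Prkaa2* -0.61, *Prkab1* -0.35, *Prkab2* -0.71, *Prkag2* -1.13 and *Camkk2* -0.38, and with single libraries left out *Prkag2* ran from -0.031 to 0.30 and *Stk11* from -0.21 to 0.030. In fed mice *Prkab2* stood at -0.057 by limma-voom and -0.10 under ERCC scaling, and ran from -0.10 to 0.22 with single libraries left out. In FD mice ERCC scaling gave *Prkaa1* 0.78, *Prkaa2* 0.20, *Prkab2* 0.0049, *Prkag2* 0.32 and *Stk11* 0.88. With spike-in set as a block *Prkab1* stood at -0.049 and *Stk11* at 0.045, and *Stk11* stood at 0.22 with age cohort as a block, 0.27 within mice of 54 to 56 days and 0.28 without those of 46 to 47 days. With single libraries left out *Prkab1* ran from -0.14 to 0.36 and *Stk11* from -0.22 to 0.057. For the interaction ERCC scaling gave *Prkaa1* 0.14, *Prkaa2* 0.50, *Prkab1* 0.44, *Prkab2* 0.10 and *Prkag2* 1.01, and *Camkk2* ran from -0.031 to 0.56 with single libraries left out. With 1 library left out, the mean share of *Prkab2* ran from 75.8 to 87.8% in fed POMC and from 38.1 to 48.1% in FD AGRP neurons. That of *Prkag2* ran from 39.9 to 45.0% in FD AGRP and from 59.6 to 64.9% in FD POMC neurons. For *Prkaa2* in fed POMC neurons the range was 45.0 to 51.0%. The members with the fewest counts (*Prkab1*, *Camkk2*) have the widest errors, and changes inside their intervals were not detectable here. Nothing places mice of 1 group in separate litters or batches beyond age and spike-in set. Those were partly confounded with the groups, and reporter strain wholly with cell type, and the main fit held none of them. The p-values measure the spread between these mice and do not separate group from age, spike-in set or strain. Shifts under ERCC scaling share the confounding of the spike-in sets, and its part was not tested.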

Other observations

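The summed TPM of the alpha paralogs was 105 ± 13.8 in fed AGRP, 74.7 ± 16.1 in FD AGRP, 89.9 ± 21.9 in fed POMC and 133 ± 27.4 in FD POMC neurons (SD, n = 5, 6, 5 and 5), a description with no test. The beta paralogs summed to 38.7 ± 13.5, 26.8 ± 8.03, 24.1 ± 4.71 and 41.8 ± 8.79 TPM, and the gamma paralogs to 56.8 ± 18.4, 51.0 ± 8.11, 69.4 ± 18.4 and 69.4 ± 27.7 TPM. The alpha sum exceeded the beta sum on average in each group. TPM hold no TMM scaling, and the TMM factors were 1.04 to 1.11 in fed and 0.858 to 1.03 in FD AGRP libraries. In normalized CPM, *Prkaa1* measured 88.5 ± 14.5 in fed and 71.1 ± 18.1 in FD AGRP neurons, and *Prkaa2* 87.3 ± 17.0 and 77.9 ± 18.0.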
